A study of Mus musculus with 23 samples.

Results

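The adhesion genes described here are Nrxn2 and Nrxn3, which encode presynaptic neurexins, and 7 genes of their postsynaptic partners, the neuroligins Nlgn1, Nlgn2 and Nlgn3 and the leucine-rich repeat proteins Lrrtm1, Lrrtm2, Lrrtm3 and Lrrtm4. They were taken by name: the 9 genes are the rows of the deposited expression table whose Ensembl identifiers map to these symbols, of 18848 genes in all. All 9 lay far above the limit of a mean of 10 normalised reads, which 17256 genes passed for testing. The RNA came from brain, with no region named, and the mice were C57BL/6J males at postnatal day 17. There were 6 libraries of mice heterozygous for the Grin2b C456Y mutation given DCS (HT DCS), 6 of heterozygous mice given vehicle (HT vehicle), 5 of wild-type mice given DCS (WT DCS) and 6 of wild-type mice given vehicle (WT vehicle). Grin2b codes for GluN2B, a subunit of NMDA receptors, and the descriptions of the libraries mark the mutant allele as KI. A gene-level value shows nothing of which allele was read. DCS usually stands for D-cycloserine, which acts at the co-agonist site of that receptor; the labels give neither the full name nor a dose or time of treatment. No label says that each library came from a separate mouse, so the p-values below measure the spread between these libraries, which may be technical.

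Neurexins sit on the axon terminal and reach across the synaptic cleft to neuroligins and LRRTM proteins on the dendrite. The choice of partner, and the alternative splicing of the neurexins, are known to shape whether and how a contact becomes an excitatory or an inhibitory synapse. Neuroligin 1 is found mainly at excitatory synapses, where it helps to hold NMDA receptors, neuroligin 2 mainly at inhibitory synapses, and neuroligin 3 at both. LRRTM proteins act at excitatory synapses, where LRRTM1 and LRRTM2 are known to help keep AMPA receptors in place. The third postnatal week, in which these brains were taken, is a time of rapid synapse formation in the mouse forebrain.

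None of the 9 genes changed between any groups by the test over all genes, and their levels stayed within a narrow band. Over 8 comparisons the 95% intervals of the differences ran from -0.33 to 0.27 on the log2 scale, which are folds of 0.796 and 1.21. The test was limma on log2(normalised read count + 1), with Benjamini-Hochberg adjustment over 17256 genes, and the smallest adjusted p of any of the 72 gene and comparison pairs was 0.662. Of these 72 pairs, 3 had an unadjusted p under 0.05, and they involve Nlgn1 and Lrrtm3. The background is as quiet: 0 of 17256 genes (0%) were called in each of the 8 comparisons (limma), so a count of 0 among the 9 genes is no property of theirs.

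The 6 excitatory neuron markers were all measured, none at 0 in every library, and summed to 50208 to 55726 normalised reads over the 23 libraries. The other marker lists met the same condition, so it does not test the label brain.

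The presynaptic neurexins were the most and the third most abundant of the 9 in every library as deposited, before any division by length. Nrxn2 had a lowest, median and highest normalised read count of 18055, 19379 and 20347 in HT DCS, and of 17976, 18844 and 21185 in HT vehicle. Its 5 WT DCS libraries had 20451, 18197, 19036, 19542 and 18237, and its WT vehicle libraries had a lowest, median and highest value of 17978, 18970 and 20553. The 4 groups overlapped almost wholly, with means of 19410 ± 797 (SD, n = 6), 19120 ± 1170 (n = 6), 19090 ± 947 (n = 5) and 19080 ± 966 (n = 6) in the same order. Within HT DCS, HT vehicle and WT vehicle, all replicates up to number 3 (early) lay below all later replicates (late). The highest early and lowest late values were 19356 and 19403 in HT DCS. They were 18408 and 19281 in HT vehicle, and 18670 and 19270 in WT vehicle. The WT DCS libraries did not split in this way. Each SD covers early and late replicates together, and the cause of the split was not tested.

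Nrxn3 ranged from 7163 to 8411 in HT DCS with a median of 8019, and from 7070 to 8455 in HT vehicle with a median of 8138. Its WT DCS libraries had 8846, 7413, 8521, 8335 and 8416, and its WT vehicle libraries lay between 7481 and 8164 with a median of 7941. The highest library of all was WT DCS replicate 1, and 4 of the 5 WT DCS libraries lay over the WT vehicle mean, although the ranges overlapped. The gene-level table adds up all transcripts of a neurexin, so the long alpha forms, the short beta forms and the splice variants that choose the partner are not seen apart.

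Among the neuroligins, Nlgn2 was the most abundant and the steadiest. Its normalised read count averaged 11490 ± 575 (SD, n = 6) in HT DCS, 11630 ± 384 (n = 6) in HT vehicle, 11690 ± 326 (n = 5) in WT DCS and 11370 ± 530 (n = 6) in WT vehicle. Nlgn3, an X-linked gene present in a single copy in these males, averaged 5024 ± 276 in HT DCS, 5196 ± 302 in HT vehicle, 5143 ± 249 in WT DCS and 4989 ± 242 in WT vehicle. For both genes the differences between group means were smaller than or close to 1 SD of the libraries.

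Nlgn1 was the neuroligin with the fewest normalised reads and the one whose HT DCS libraries stood highest against the other groups. Its lowest, median and highest values were 2169, 2481 and 2596 in HT DCS and 2082, 2262 and 2496 in HT vehicle. The WT DCS libraries had 2317, 2188, 2306, 2407 and 2262, and the WT vehicle libraries had 2168, 2287 and 2386 as lowest, median and highest. The HT DCS libraries stood high as a group, 5 of 6 above the HT vehicle mean, but replicate 3, at 2169, was among the lowest of all and the ranges overlapped.

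Before division by length, Lrrtm1 and Lrrtm2 were of similar abundance, and Lrrtm3 and then Lrrtm4 ranked below them in all 23 libraries. Lrrtm1 averaged 2133 ± 79.3 (SD, n = 6) in HT DCS, 2102 ± 99.2 (n = 6) in HT vehicle, 2100 ± 122 (n = 5) in WT DCS and 2150 ± 29.0 (n = 6) in WT vehicle, the tightest group of any gene here. Lrrtm2 had 2248, 2357 and 2438 as lowest, median and highest in HT DCS and 2090, 2287 and 2477 in HT vehicle. Its WT DCS libraries had 2213, 2240, 2133, 2280 and 2228, and its WT vehicle libraries ranged from 2083 to 2394 with a median of 2273. All 6 HT DCS libraries lay over the WT DCS mean for Lrrtm2, with overlap at the low end only.

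Lrrtm3 was the gene whose libraries scattered most. Its lowest, median and highest values were 1442, 1585 and 1933 in HT DCS and 1354, 1744 and 1793 in HT vehicle. The WT DCS libraries had 1676, 1654, 2005, 1827 and 1925, and the WT vehicle libraries had 1496, 1750 and 1959 as lowest, median and highest. The 3 lowest of the 23 libraries were HT libraries, and in HT DCS all but 1 library was below the average of WT DCS, but HT DCS replicate 1 was among the highest and the ranges overlapped. Lrrtm4, whose protein binds heparan sulfate proteoglycans, averaged 1109 ± 66.6 in HT DCS, 1102 ± 63.3 in HT vehicle, 1056 ± 87.0 in WT DCS and 1136 ± 74.3 in WT vehicle. Its 5 WT DCS libraries had 1019, 939, 1138, 1147 and 1040, of which replicate 2 was the lowest of the 23.

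**Figure D1:**
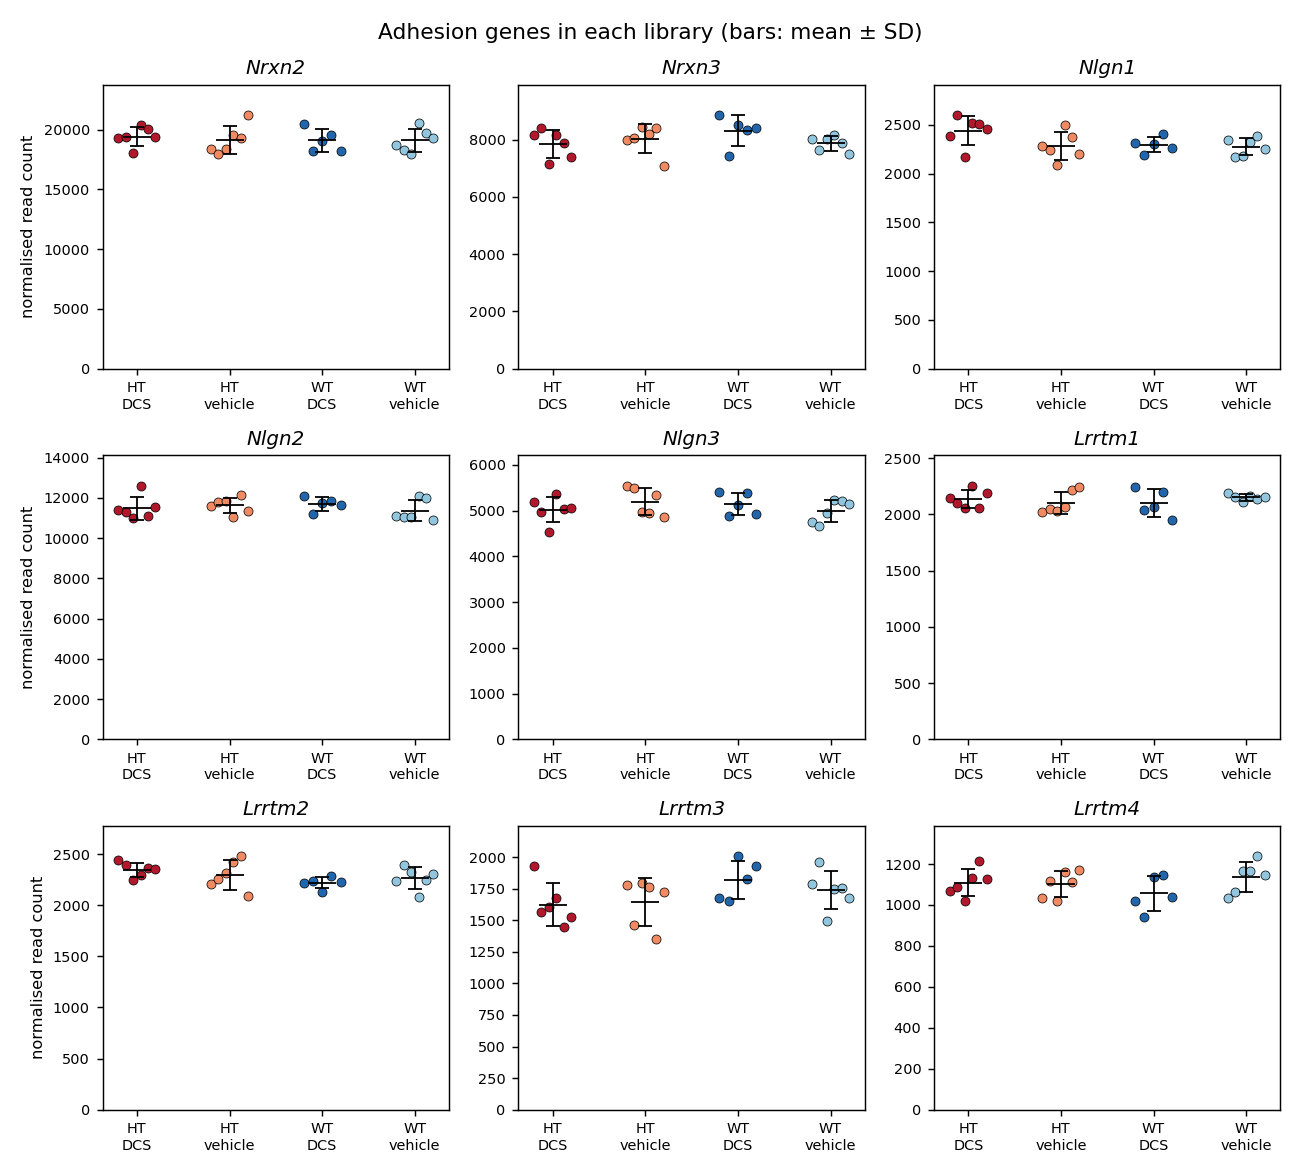
Normalised read counts of the 9 adhesion genes in each library, by group (points, 6, 6, 5 and 6 libraries from left to right), with the group mean and SD as bars; each vertical axis starts at 0. The groups overlap for every gene, and Lrrtm3 scatters most, between 1354 and 2005.

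Levels can be set against each other only after division by transcript length. Divided by the length of all annotated exons, Nlgn2 led with 1990 ± 78.8 normalised reads per kb (SD over 23 libraries), followed by Nrxn2 with 1390 ± 66.7. Lrrtm1 had 700 ± 27.6, Nrxn3 635 ± 36.6 and Nlgn3 549 ± 28.6 normalised reads per kb. Lrrtm3, at 400 ± 40.8, and Lrrtm2, at 379 ± 17.4, did not differ beyond their spread, and neither did Lrrtm4, at 179 ± 11.9, and Nlgn1, at 173 ± 9.9. Divided by the longest coding transcript instead, Nrxn2 led Nlgn2, with 2880 ± 138 against 2070 ± 81.9, and Nrxn3 passed Lrrtm1, with 1010 ± 58.2 against 835 ± 33.0. The remaining 5 kept their places, and Nlgn1 was lowest on this scale as well, at 197 ± 11.3 normalised reads per kb. The transcripts in use in these brains are not known from the table, so the order of neighbours rests on the length chosen.

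**Figure D2:**
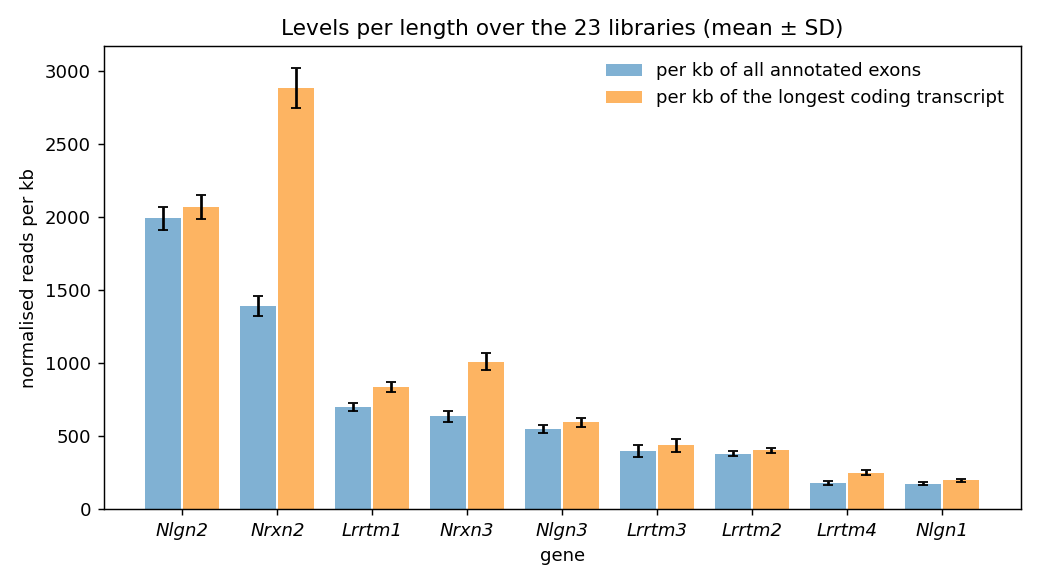
Normalised reads per kb of the 9 genes, mean over the 23 libraries with the SD as bars, divided by the length of all annotated exons or of the longest coding transcript in GENCODE M21. Nlgn2 and Nrxn2 lead on either length, and Lrrtm4 and Nlgn1 are lowest.

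The stretch before the transcription start differs in base composition between these genes, and 3 are shown because they belong to the gene with the most reads per kb of exon (Nlgn2), the gene with the widest scatter (Lrrtm3) and the gene with the fewest normalised reads (Lrrtm4). They are taken from RefSeq on GRCm38, at chr11:69837785-69838034 (minus strand, Nlgn2), chr10:64090278-64090505 (minus strand, Lrrtm3) and chr6:80018627-80018876 (plus strand, Lrrtm4), read 5′ to 3′ along the gene's strand up to the first base of an annotated exon. Both strands were searched for 4 motifs and for the core of 1 of them. The GC box was written GGGCGG and the TATA box was written TATAAA. The CCAAT box was searched by the letters of its name, and the cAMP response element was written TGACGTCA in full, which holds its core TGACG. Capitals mark any match on either strand.
Nlgn2: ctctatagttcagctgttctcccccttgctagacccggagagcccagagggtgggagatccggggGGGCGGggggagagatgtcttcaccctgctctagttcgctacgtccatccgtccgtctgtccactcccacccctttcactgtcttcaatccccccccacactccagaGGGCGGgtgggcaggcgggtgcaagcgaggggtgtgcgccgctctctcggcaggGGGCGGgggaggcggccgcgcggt
Lrrtm3: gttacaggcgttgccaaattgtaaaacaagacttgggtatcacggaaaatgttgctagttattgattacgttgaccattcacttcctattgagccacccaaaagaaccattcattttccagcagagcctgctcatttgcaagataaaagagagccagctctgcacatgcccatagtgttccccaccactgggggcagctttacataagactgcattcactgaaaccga
Lrrtm4: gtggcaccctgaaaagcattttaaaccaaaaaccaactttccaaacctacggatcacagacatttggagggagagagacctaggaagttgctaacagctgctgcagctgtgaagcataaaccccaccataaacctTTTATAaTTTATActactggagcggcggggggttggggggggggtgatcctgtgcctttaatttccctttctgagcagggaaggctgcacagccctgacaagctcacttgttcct
The 250 bases before the Nlgn2 start were 67.6% G and C and held 3 GC boxes, at 185, 78 and 24 bases before the start. Those of Lrrtm3, of which the 228 outside annotated exons are printed, were 46.0% G and C and held none of these motifs. Those of the first Lrrtm4 start were 49.2% G and C and held 2 TATA boxes on the opposite strand, at 115 and 108 bases before the start. Over the 32851 windows of this length in the same table, the median G and C content was 52.4%, and 32.7% held a GC box, 12.4% a TATA box, 33.8% a CCAAT box and 1.55% the full cAMP response element. Of the adhesion genes, windows of 6 were searched (Nlgn1, Nlgn2, Lrrtm1, Lrrtm3, Lrrtm4 and Nrxn3), and the others were not. None of the searched windows held the full response element or its core, which 17.8% of all windows hold. A match, or none, describes these letters and says nothing of a factor.

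The comparison of heterozygous with wild-type mice under vehicle asks what the Grin2b mutation does to these genes without the drug. Of the 9 genes, 0 were called, beside 0% of all genes, and 0 had an unadjusted p under 0.05, against 729 of 17256 genes (limma). Differences ran from -0.08 to 0.06 (log2), with a median of 0.002 against 0 over all genes, 6 above 0 and 3 below. Nlgn3 had the smallest p, at 5196 normalised reads in HT vehicle on average against 4989 in WT vehicle, a log2 difference of 0.06 ± 0.04 (SE; limma, adjusted p = 0.999). Lrrtm3 came next, at 1645 in HT vehicle against 1736 in WT vehicle, a difference of -0.08 ± 0.08 (limma, adjusted p = 0.999). In each case 3 of 6 HT vehicle libraries lay above the WT vehicle mean, so the groups did not separate. The intervals of all 9 lay between -0.24 and 0.15, folds of 0.848 and 1.11.

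Under DCS, the genotypes were compared in the same way, again with 0 of 9 genes called beside 0% of all genes and 0 of 9 at an unadjusted p under 0.05, against 1302 of 17256 (limma). Lrrtm3 averaged 1624 ± 170 in the 6 HT DCS libraries and 1818 ± 153 in the 5 WT DCS libraries (SD), a log2 difference of -0.16 ± 0.08 (SE; limma, adjusted p = 0.662). Lrrtm2 averaged 2348 ± 67.8 in HT DCS and 2219 ± 54.1 in WT DCS, a difference of 0.08 ± 0.04 (limma, adjusted p = 0.67). These LRRTM genes thus leaned in opposite directions, with neither past the threshold. The other 7 lay between -0.08 and 0.09, and the median of the 9 was 0.02 against 0 over all genes. Hindbrain marker sums were 462 to 1457 normalised reads in HT DCS and 1046 to 1547 in WT DCS, lowest in HT DCS replicates 5 and 6. All 13 markers were measured, none at 0 in every library. Lrrtm3 was also lowest of its group in HT DCS replicates 5 and 6, at 1442 and 1525, and its difference was -0.10 without them (limma, adjusted p = 0.998). Over all 23 libraries, Lrrtm3 and the hindbrain markers, as deviations, had r = 0.15 (permutation p = 0.54, adjusted 0.83) and rho = 0.04 (permutation p = 0.88, adjusted 0.94), and r = -0.09 without the 2 farthest libraries.

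DCS against vehicle in wild-type mice asks what the drug does alone. Here too 0 of 9 genes were called beside 0% of all genes, with 0 of 9 and 497 of 17256 at an unadjusted p under 0.05 (limma). Lrrtm4 had the smallest p, with a log2 difference of -0.11 ± 0.06 (SE; limma, adjusted p = 1), and 2 of 5 WT DCS libraries above the WT vehicle mean. Nrxn3 averaged 8306 ± 536 (SD, n = 5) in WT DCS and 7865 ± 262 (n = 6) in WT vehicle, a difference of 0.08 ± 0.05 (limma, adjusted p = 1). WT DCS replicate 2 weighs on both values: without it the Lrrtm4 difference was -0.06 and the Nrxn3 difference 0.12. The 9 genes ran from -0.11 to 0.08, with a median of 0.01 against 0 over all genes.

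DCS against vehicle in heterozygous mice addresses the drug's effect where the mutation is present. Nlgn1 averaged 2439 ± 149 (SD, n = 6) in HT DCS and 2279 ± 143 (n = 6) in HT vehicle, a log2 difference of 0.10 ± 0.04 (SE; fold 1.07, 95% interval 1.01 to 1.14; limma, unadjusted p = 0.0306, adjusted p = 0.973). It was the 1 gene of the 9 with an unadjusted p under 0.05, against 828 of 17256 (4.8%), while 0 of 9 were called beside 0% of all genes. Nlgn3 leaned the other way, with 5024 in HT DCS and 5196 in HT vehicle and a difference of -0.05 ± 0.04 (limma, adjusted p = 0.974), which was -0.02 without HT DCS replicate 3. Nlgn1 in percent of Nlgn2 normalised reads was also taken in each library, a ratio not corrected for length. This ratio compares RNA and does not measure a balance of excitatory and inhibitory synapses. It was 21.3 ± 1.3% (SD, n = 6) in HT DCS, 19.6 ± 1.6% (n = 6) in HT vehicle, 19.6 ± 0.4% (n = 5) in WT DCS and 20.0 ± 0.7% (n = 6) in WT vehicle. The lowest HT DCS library, at 19.7%, lay under the highest HT vehicle library, at 22.6%, so the ranges overlapped. This ratio was formed after the values were seen and carries no test.

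Choroid plexus markers moved against Nlgn1 and, more weakly, against most of the other genes. The 5 markers, none at 0 in every library, summed to 6083 to 11433 normalised reads in HT DCS and 7975 to 12282 in HT vehicle. The sums were 6823 to 14625 in WT DCS and 7703 to 10140 in WT vehicle. Their mean log2 value was 7.62 ± 0.25 (SD) in HT DCS, 7.88 ± 0.24 in HT vehicle, 7.79 ± 0.37 in WT DCS and 7.54 ± 0.10 in WT vehicle. With each of the 23 libraries taken relative to its own group mean, Nlgn1 and the mean of these markers had a Pearson r of -0.68 (permutation p = 0.00034, adjusted 0.04 over 117 relations) and a Spearman rho of -0.73 (permutation p = 0.00039, adjusted 0.023), two-sided. Without the 2 libraries farthest from the median of the markers r was -0.74. This was the only relation of a member with a marker list, of 117, whose Pearson r passed the adjustment. Its direction was shared by most of the other genes. Their r was -0.63 for Lrrtm4, -0.55 for Nrxn3, -0.54 for Nrxn2, -0.42 for Nlgn2 and Nlgn3 each, and -0.41 for Lrrtm1. It was -0.12 for Lrrtm2 and 0.27 for Lrrtm3. With excitatory neuron markers r was positive for every gene, highest for Lrrtm1 (0.67, permutation p = 0.0056, adjusted 0.082). By Spearman rho, oligodendrocyte markers also passed with Lrrtm4 (r = -0.59, permutation p = 0.0025, adjusted 0.057; rho = -0.74, adjusted 0.02; r = -0.65 without 2 libraries) and Nrxn2 (r = -0.60, permutation p = 0.0024, adjusted 0.057; rho = -0.69, adjusted 0.033; r = -0.62 without 2 libraries). In every group, oligodendrocyte marker means were higher in replicates 1 to 3 than in the later replicates (14.34 to 14.58 against 13.91 to 14.21 in HT DCS). The permutations treated all libraries of a group as exchangeable, so such a shift can enter these p-values, and its part was not tested. Fewer cells of a type and less RNA per cell cannot be told apart in bulk tissue, and the part of choroid plexus content in the Nlgn1 difference was not tested.

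**Figure D3:**
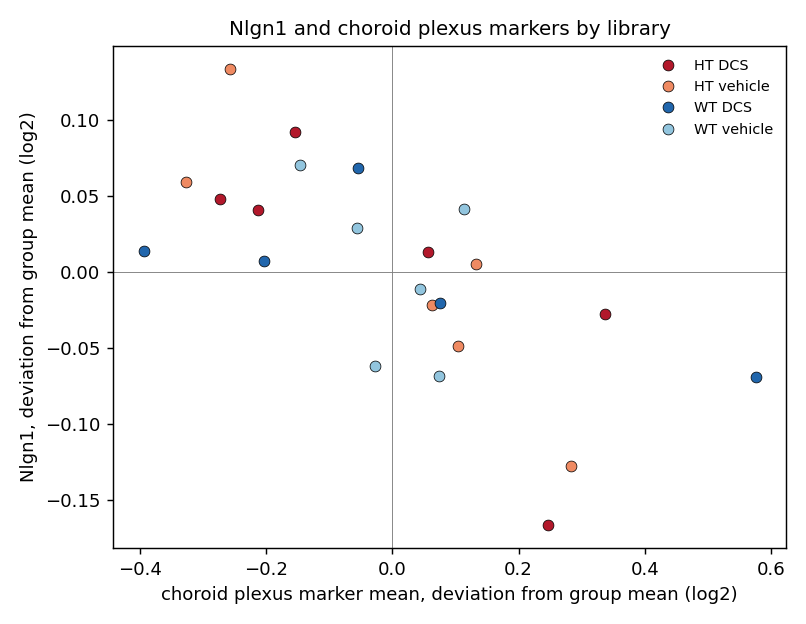
Nlgn1 against the mean of 5 choroid plexus markers, each as the deviation of a library from its group mean (log2), 1 point per library. Libraries with higher marker values have lower Nlgn1 (r = -0.68, n = 23).

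Heterozygous mice given DCS were also set against vehicle-treated wild-type mice, the comparison that asks what difference remains under treatment. Again 0 of 9 genes were called beside 0% of all genes, and 1 of 9 against 1239 of 17256 had an unadjusted p under 0.05 (limma). That gene was Nlgn1, with 2439 ± 149 in HT DCS and 2274 ± 89.3 in WT vehicle, a log2 difference of 0.10 ± 0.04 (SE; limma, adjusted p = 0.669), and 5 of 6 HT DCS libraries above the WT vehicle mean. This comparison shares its HT DCS libraries with the comparison against HT vehicle, so the values do not add to each other. Lrrtm2 was next, with a difference of 0.05 ± 0.04 (limma, adjusted p = 0.807), which was 0.03 without WT vehicle replicate 4.

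Averaging over the other factor lowers the error of each effect. For genotype, averaged over treatments, Lrrtm3 differed by -0.12 ± 0.06 (SE, log2; fold 0.918, 95% interval 0.849 to 0.994; limma, unadjusted p = 0.0356, adjusted p = 0.672), and Lrrtm2 by 0.05 ± 0.03 (limma, adjusted p = 0.753). The average levels of 3 marker lists were lower in both HT groups than in both WT groups. The lists for excitatory neurons, cortex and hippocampus, microglia, endothelial cells and oligodendrocyte precursors were higher in both HT groups than in both WT groups. For astrocyte markers HT DCS and WT DCS tied at 13.31 as rounded, and neither order held for the remaining lists. All of this is a description with no test. The mean log2 value of 6 striatum markers was 10.56 in HT DCS, 10.58 in HT vehicle, 10.69 in WT DCS and 10.72 in WT vehicle. In the same order, 8 oligodendrocyte markers had 14.28, 14.42, 14.52 and 14.52, and the hindbrain markers 3.95, 4.31, 4.61 and 4.84. Hindbrain values varied most between libraries in HT DCS. The part of any marker list in the genotype differences of these genes, and of the related genes described further on, was not tested. For DCS, averaged over genotypes, Nlgn1 differed by 0.06 ± 0.03 (limma, adjusted p = 1) and Lrrtm4 by -0.05 ± 0.04 (limma, adjusted p = 1), or -0.03 without WT DCS replicate 2. Of the 9 genes 0 were called in each, beside 0% of all genes, and 1 and 0 had an unadjusted p under 0.05, against 1237 and 545 of 17256. All 9 intervals for DCS lay between -0.13 and 0.14.

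The interaction of genotype and DCS, the difference between the drug's effects in HT and in WT mice, was not detected for any of the 9 genes (0 called beside 0% of all genes, 0 at an unadjusted p under 0.05 against 756 of 17256; limma). Nrxn3 had the smallest p: its difference of DCS from vehicle was -0.03 in HT and 0.08 in WT mice, an interaction of -0.11 ± 0.07 (SE, log2; limma, adjusted p = 0.984). Nlgn3 had -0.05 in HT and 0.04 in WT mice, an interaction of -0.09 ± 0.06 (limma, adjusted p = 0.984). The 95% intervals of the interaction differed between genes, from -0.16 to 0.04 for Nlgn2 to -0.31 to 0.15 for Lrrtm3.

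**Figure D4:**
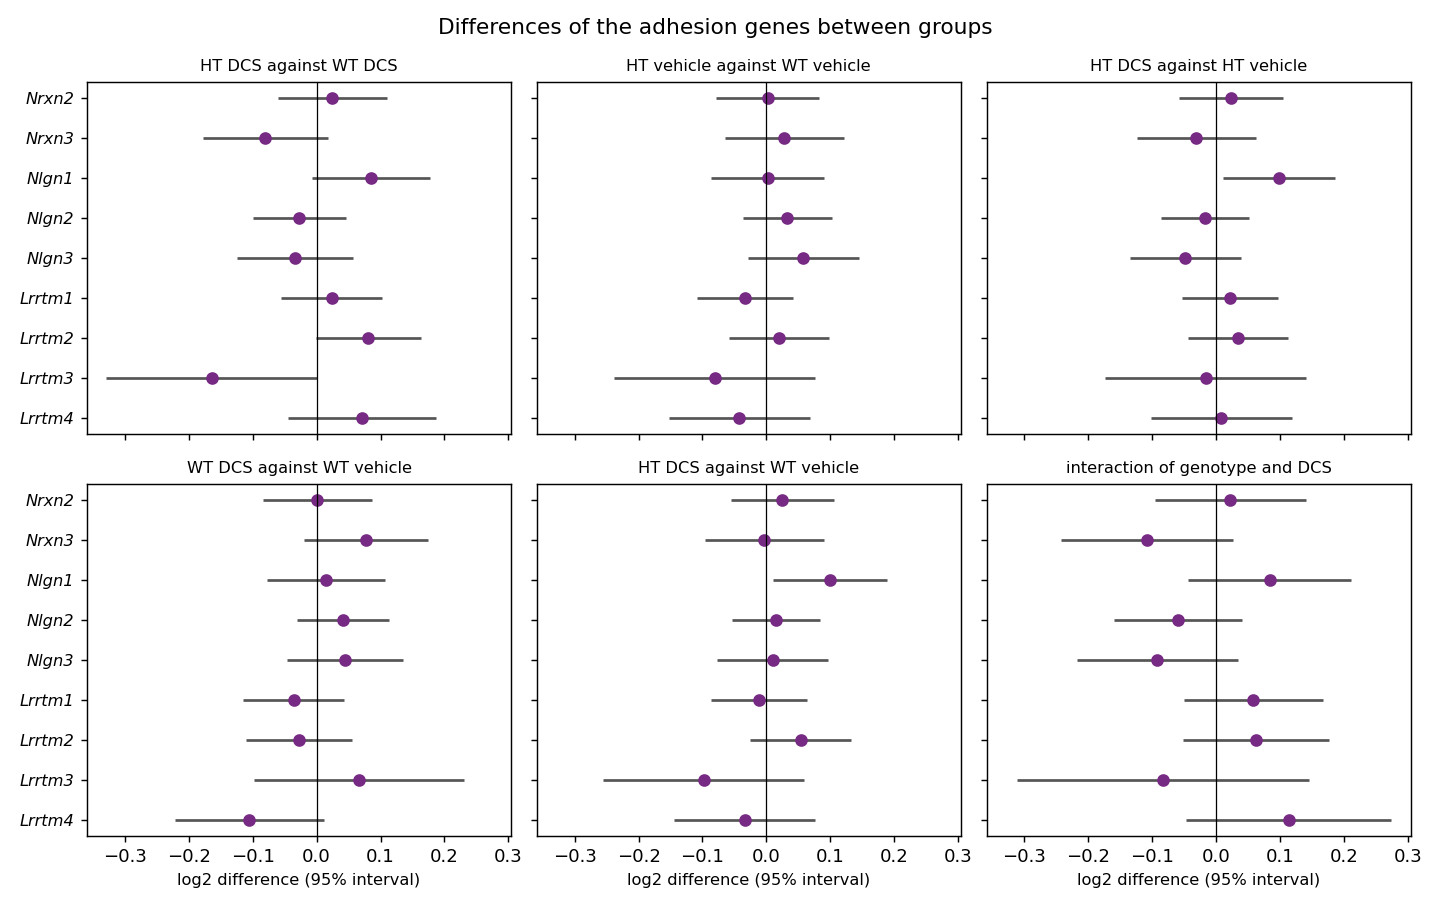
Log2 differences of the 9 genes (points) with their 95% limma intervals (lines) in 6 comparisons, each the first group minus the second; the interaction is the DCS effect in HT minus that in WT. Most intervals cross 0, and Lrrtm3 has the widest.

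The spread between libraries of a group sets these limits, and it differed between the genes. Around the group means, the SD of the log2 values was 0.058 for Nlgn2, 0.059 for Lrrtm1, 0.064 for Lrrtm2, 0.073 for Nrxn2, 0.075 for Nlgn1, 0.077 for Nlgn3, 0.084 for Nrxn3, 0.096 for Lrrtm4 and 0.144 for Lrrtm3. Among 6534 genes that average 1000 or more normalised reads, the median was 0.072, so most of these genes vary about as much as other abundant genes. Lrrtm3 stood out, with a larger SD than 95.3% of those genes, and its deviations ran from -0.27 in HT vehicle replicate 5 to 0.26 in HT DCS replicate 1.

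Some libraries were low or high for many of the 9 genes at once. HT DCS replicate 3 was the lowest of its group for 8 of 9 genes, Lrrtm3 being the exception, and under the group mean for all 9. WT DCS replicate 2 was the lowest of its group for 7 of 9, the exceptions being Lrrtm1 and Lrrtm2. WT DCS replicate 1, at the other end, was the highest of its group for 5 genes. The share of all genes that were lowest or highest in these libraries was not counted, so these counts cannot be called a trait of the 9 genes. In HT DCS replicate 3 the mean of excitatory neuron markers lay 0.07 under its group mean (log2) and those of choroid plexus, oligodendrocyte and hindbrain markers 0.25, 0.30 and 0.87 above. The cortex and hippocampus deviation of HT DCS replicate 3 was -0.10. HT DCS replicate 1 had a higher choroid plexus deviation, 0.34, and replicate 2 a higher hindbrain deviation, 1.01. Each was lowest for 0 of the 9 genes. In WT DCS replicate 2 the excitatory neuron deviation was -0.08 and that of choroid plexus 0.58, and the microglia and hindbrain markers each lay 0.55 above the group mean. The part of tissue make-up in the low values was not tested.

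**Figure D5:**
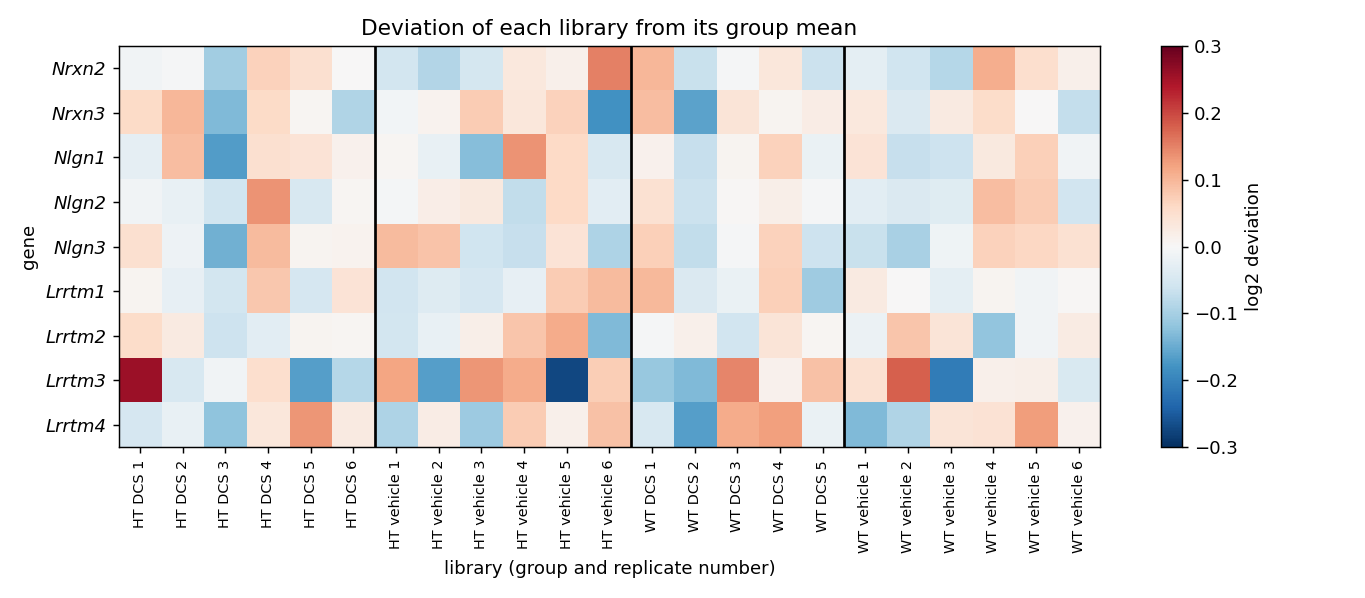
Deviation of each library from its group mean (log2, colour) for the 9 genes (rows) in the 23 libraries (columns, groups divided by black lines). HT DCS replicate 3 and WT DCS replicate 2 are blue for nearly all genes, and Lrrtm3 has the strongest colours.

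The genes also varied together in part. Of the 36 pairs, Nrxn2 and Lrrtm1 had the highest correlation of deviations over the 23 libraries (Pearson r = 0.69, permutation p = 0.00063, adjusted 0.023; Spearman rho = 0.68, permutation p = 0.00094, adjusted 0.017; r = 0.66 without the 2 farthest libraries), two-sided. Nlgn2 and Nlgn3 followed (r = 0.66, permutation p = 0.003, adjusted 0.054; rho = 0.70, permutation p = 0.00089, adjusted 0.017; r = 0.61 without 2 libraries). Lrrtm3 had r between -0.19 (with Nlgn3) and 0.05 (with Nrxn3) with the other 8, while Nlgn1 and Lrrtm4 had 0.55 (permutation p = 0.0083, adjusted 0.078; rho = 0.50, permutation p = 0.021, adjusted 0.13; r = 0.41 without 2 libraries). These points share their library, its scaling and its tissue make-up. The permutations also treated early and late replicate numbers of a group as exchangeable, although Nrxn2 split by them in most groups.

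Among 12227 named genes averaging 100 or more normalised reads, the closest in pattern, by Pearson r of the same deviations over the 23 libraries, are given as a description with no test. Nrxn2 was nearest to Hk1, the hexokinase of brain (r = 0.92, rho = 0.92), and to Agap2 (r = 0.90). Nrxn3 was nearest to Syt1, the calcium sensor of transmitter release, and to Tmx4 (r = 0.91 each). Nlgn1 was nearest to Nrg3, a neuregulin (r = 0.89), and Pla2g4e (0.83), and Nlgn3 to Ptdss1, a phosphatidylserine synthase (0.88), and Pitpnc1 (0.84). Nlgn2 was nearest to Ap2b1, a clathrin adaptor subunit, and to Syngr1, a synaptic vesicle protein (r = 0.82 each). Lrrtm1 was nearest to Ptms and Dbpht2 (r = 0.81 each), Lrrtm2 to Ccnl1 (0.80) and Scn1a, a sodium channel (0.75), and Lrrtm4 to Map9 (0.89) and Phf14 (0.87). Lrrtm3 had the weakest nearest neighbours, Raver1 (r = 0.73) and Eepd1 (r = 0.67).

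Genes around these adhesion molecules were read from the same fit, and 0 of them were called in either direction in any of the 8 comparisons, beside 0% of all genes (limma). They were 16 secreted or membrane partners of neurexins, 7 regulators and proteases of neuroligins, 18 intracellular partners, 9 splicing factors, 37 other synaptic organisers and the 3 alpha-catenin genes that host LRRTM genes. For genotype averaged over treatments, 28 of the 37 other organisers lay above 0 with a median of 0.02 (log2) against -0.001 over all genes, and 3 had an unadjusted p under 0.05, where 7.17% of all genes did. Among the organisers Cadm1, a synaptic adhesion molecule of the immunoglobulin family, averaged 5104 ± 316 (SD) in HT DCS, 5090 ± 218 in HT vehicle, 4784 ± 155 in WT DCS and 4795 ± 143 in WT vehicle, a log2 difference of 0.09 ± 0.03 (SE; limma, adjusted p = 0.506). Flrt2 differed by 0.10 ± 0.04 (limma, adjusted p = 0.615).

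Among the neurexin partners, Nxph3, a neurexophilin that binds alpha-neurexins, averaged 1070 ± 57.3 in HT DCS, 1076 ± 40.6 in HT vehicle, 1017 ± 43.2 in WT DCS and 991.3 ± 29.7 in WT vehicle, a difference by genotype of 0.10 ± 0.03 (SE, log2; limma, adjusted p = 0.51). C1ql3 differed by 0.08 ± 0.04 (limma, adjusted p = 0.697). Mdga1 and Mdga2 encode proteins that bind neuroligins and block their contact with neurexins. Mdga1 averaged 1940 ± 167 in HT DCS, 1895 ± 81.5 in HT vehicle, 1802 ± 161 in WT DCS and 1772 ± 146 in WT vehicle, a difference by genotype of 0.10 ± 0.04 (limma, adjusted p = 0.646). Mdga2 differed by 0.07 ± 0.04 (limma, adjusted p = 0.764).

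Of the intracellular partners, Magi2, a scaffold protein, differed by 0.07 ± 0.04 with DCS averaged over genotypes (SE, log2; limma, adjusted p = 1), and Epb41l2 by 0.07 ± 0.04 by genotype (limma, adjusted p = 0.76). Of the 9 genes listed as splicing factors for neurexin transcripts, an action not tested here, Celf4 differed by 0.03 ± 0.02 and Nova2 by 0.05 ± 0.04 by genotype (limma, adjusted p = 0.79 and 0.805). In this list 1 gene had an unadjusted p under 0.05 in HT DCS against WT DCS and 1 in the interaction (limma). Of all genes 7.55% and 4.38% did, and neither count came from Celf4 or Nova2. Of the host genes, Ctnna3 differed by -0.15 ± 0.13 and Ctnna1 by -0.03 ± 0.03 by genotype (limma, adjusted p = 0.855 and 0.875). None of these passed the threshold. The list medians by genotype were 0.003 for neurexin partners, 0.07 for neuroligin regulators (5 of 7 above 0), -0.003 for intracellular partners, -0.012 for splicing factors and -0.03 for host genes. The neuroligin regulators had medians of -0.01 in HT DCS against HT vehicle and -0.004 in HT DCS against WT vehicle, with 2 of 7 at an unadjusted p under 0.05 in each, where 4.8% and 7.18% of all genes were. In HT DCS against WT vehicle these were Mdga1 (0.13, limma, unadjusted p = 0.033) and Mdga2 (0.14, limma, unadjusted p = 0.024). In HT DCS against HT vehicle they were other genes, as Mdga1 and Mdga2 had unadjusted p = 0.605 and 0.262 (limma). Both comparisons share the HT DCS libraries.

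The 9 genes lie on GRCm38 chromosomes 3, 6, 10, 11, 12, 18, 19 and X, and all are protein coding in GENCODE M21. Nrxn3 (chromosome 12, 88722876 to 90334935, plus strand) spans 1612.1 kb, Nlgn1 (chromosome 3, 25426215 to 26332460, minus strand) 906.2 kb and Lrrtm4 (chromosome 6, 80018877 to 80810143, plus strand) 791.3 kb. Nlgn2 (chromosome 11, 69823122 to 69837784, minus strand) spans only 14.7 kb. Lrrtm1, Lrrtm2 and Lrrtm3 each lie on the opposite strand inside an alpha-catenin gene, Ctnna2, Ctnna1 and Ctnna3, which had mean normalised read counts of 4913.9, 1823.6 and 43.9. Their exons share 0, 95 and 0 bases with those of the host. Nlgn3 (chromosome X, 101299168 to 101325963, plus strand) shares 3823 exonic bases with Gm21986, a transcript on the same strand, and 40.9% of its 31-base words occur in that transcript, so reads can move between the 2 genes. Gm21986 averaged 141.4 ± 46.0 in HT DCS, 188.4 ± 30.6 in HT vehicle, 138.6 ± 58.5 in WT DCS and 151.7 ± 33.9 in WT vehicle, small beside Nlgn3. Antisense transcripts overlap exons of Lrrtm4 (24.5% of its words, Gm4409) and Nlgn1 (8.92%, A830092H15Rik); the kit keeps strand, but how it was used in counting is not given in the sources used here.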

How the data were processed

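Per the labels, libraries were made with a stranded mRNA kit from brain RNA, and DESeq2 1.26.0, R 3.6.2, Salmon 1.1.0 and the build GRCm38 are listed, without role or order, in the submitters' processing notes. The authors deposited a signal table of 18848 genes by 23 libraries, read counts scaled between libraries and not divided by length, with library sums of 32.3 to 33.5 (in units of 1e6). Annotation, low-value filter and depth before scaling were not given in the sources used here and whole reads could not be recovered, so no counting error is stated. The number of libraries limits precision. Scaling hides differences in total RNA. Gene symbols came from a table of identifiers, in which 16 identifiers had none, and positions and lengths from GENCODE M21 (GRCm38).

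Limma 3.58.1 (R 4.3.3) was fitted to log2(value + 1), a scale that understates changes of low genes, with 1 coefficient per group over all 23 libraries, trend and robust moderation, with Benjamini-Hochberg adjusted p under 0.05 as the call, over the 17256 genes averaging 10 or more. Tests are two-sided. Count tests need unscaled reads and were not run. In each comparison the 2 members with the smallest p are given with their errors; for lists of other genes, the 2 with the smallest p over the averaged comparisons. Correlations used 100000 permutations within groups. The fit was tested on simulated data. Members, gene lists and marker lists were chosen with earlier results of these data known. Alternatives were quantile normalisation, other filters and pseudocounts, no trend, only the groups compared, replicate blocks and leaving out libraries; those without HT DCS replicates 5 and 6, and with a block of replicate numbers 1 to 3 and 4 to 6, were chosen after seeing the data.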

Additional observations from a re-analysis of the deposited data

Results flagged for a closer look

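In 2 of the 36 gene and group sets a single library stood apart from the rest of its group by Dixon's criterion, which chance meets in about 5% of sets. Nrxn3 had 7070 normalised reads in HT vehicle replicate 6, against 7969 to 8455 in the other HT vehicle libraries. Nlgn2 had 12590 in HT DCS replicate 4, against 11010 to 11530 in the other HT DCS libraries.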

How the results depend on the processing

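The 16 named differences kept their sign in all 538 values over 34 alternatives, and 0 of these values passed the threshold (limma). No member was called under any alternative; the smallest adjusted p of any member was 0.223, for Nlgn1 in HT DCS against WT vehicle without HT DCS replicate 3. Without single libraries, Nlgn1 in HT DCS against HT vehicle ran from 0.07 to 0.13, and Lrrtm3 by genotype from -0.15 to -0.10 and in HT vehicle against WT vehicle from -0.12 to -0.03, the last without HT vehicle replicate 5. Of all genes, 2 were called for genotype averaged over treatments with quantile normalisation and 4 with a block of replicate numbers 1 to 3 and 4 to 6. With the replicate number as a block, 6 were called for genotype under either numbering and 11 (titles) or 2 (descriptions) in HT DCS against WT vehicle; the numberings differ in the fifth WT DCS library, which the descriptions number 6. The labels give these numbers no meaning, and same-numbered libraries correlated between -0.07 and 0.30, with at most 3 pairs over 0.1 in a comparison and 1 or 2 libraries best matched to their own number, so they were not taken as pairs. A check of pairs cannot show a shift between numbers 1 to 3 and the later ones, by which oligodendrocyte markers split in every group. Leaving out 1 library gave 0 to 1 called genes of all genes in HT DCS against WT DCS, HT DCS against HT vehicle, HT DCS against WT vehicle and genotype averaged over treatments, with 1 called without HT vehicle replicate 6 (3 of these comparisons), HT vehicle replicate 1, HT DCS replicate 2 or HT DCS replicate 4 (1 comparison each). The cause was not tested. A fit with only the groups compared was not run for averaged effects and the interaction, which use all groups. Precision rests on 5 or 6 libraries a group.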
